A study of Mus musculus with 12 samples.

Results

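This account describes mouse hematopoietic stem cells (HSC) with and without NFAT5. It uses the 6 HSC arrays of a series of 12, 3 arrays of wild-type and 3 of NFAT5-deficient cells, chosen by the population and genotype in their labels. Donor marrow came from Nfat5 +/+ Vav-Cre mice, called wild-type, or from Nfat5 fl/fl Vav-Cre mice, called NFAT5-deficient. Both groups therefore carried the Vav-Cre transgene, and the arrays compare intact with floxed Nfat5 in cells that all had Cre. The donor marrow was CD45.2 and went into irradiated CD45.1 wild-type recipients. The cells were taken 13 weeks after transplantation by sorting CD45.2+ CD48- CD150+ cells within the LSK compartment of the bone marrow, the lineage-negative compartment that is positive for Sca-1 and Kit. Both genotypes were thus measured in HSC that had already rebuilt the blood of a recipient, not in resting HSC of an unmanipulated animal. Total RNA, 300 pg per sample, was amplified and biotin-labelled before hybridisation. The labels do not say whether an array holds 1 recipient or a pool, so p-values measure the spread between these samples, which may be partly technical.

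NFAT5 is a transcription factor of the NFAT and Rel family, best known for switching on transporters, osmolyte genes and chaperones when cells meet hypertonic medium. It also acts in immune cells under normal tonicity. HSC are largely quiescent cells that enter division under stress such as transplantation, and type I interferon is one of the signals that can push them out of quiescence. The question behind the series was how NFAT5 bears on HSC that regenerate blood, including their interferon responses. Vav-Cre is driven by regulatory elements of the Vav1 gene, which are active across blood cells and in endothelium, so deletion preceded the sort and was not limited to HSC.

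The HSC gate left its mark on the arrays. All values are log2 intensities, and values by array follow the order wild-type 66, 67 and 75, then NFAT5-deficient 64, 70 and 76. Slamf1, which encodes the sorting marker CD150, read 10.11, 9.74 and 9.66 in wild-type and 10.67, 10.33 and 9.25 in NFAT5-deficient HSC. Cd48, the marker that HSC should lack, read 5.39, 6.21 and 7.85 in wild-type and 5.54, 7.25 and 6.73 in NFAT5-deficient HSC. In the sorted multipotent progenitors (MPP) of the same series, Slamf1 read between 6.06 and 6.90 and Cd48 between 9.26 and 10.61, so the order of both markers followed the gates on every array. Kit, the stem cell factor receptor, lay between 11.06 and 11.64, and Ptprc, which encodes CD45, between 7.62 and 10.89. The genotypes overlapped at all 4 genes. Sca-1 itself was not analysed here.

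The table covered 19494 named genes, and a limma fit over all 12 arrays, which share one estimate of the spread, gave each difference as NFAT5-deficient minus wild-type. Between HSC genotypes limma called 0 genes (0.0%) at a Benjamini-Hochberg adjusted p under 0.05, and the smallest adjusted p was 0.573. Unadjusted p was under 0.05 for 1205 genes (6.18%), 522 higher (2.68%) and 683 lower (3.5%) in NFAT5-deficient HSC. In 1980 genes (10.2%) the 3 arrays of one genotype all lay above the 3 of the other, 692 higher (3.55%) and 1288 lower (6.61%). No detection calls were used, so the dim range was read from 1425 olfactory, vomeronasal and trace amine receptor genes, whose 95th percentile was 6.30. In 3 arrays the profile lay apart from the rest. Wild-type array 66 was at -73.5 on the first principal component of the HSC arrays (26.3% of the variance), and wild-type array 75 at 55.0 and NFAT5-deficient array 70 at -46.3 on the second (21.5%).

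Nfat5 read lower on every NFAT5-deficient array. It read 9.81, 9.38 and 9.27 in wild-type and 8.76, 8.34 and 7.62 in NFAT5-deficient HSC, so the groups did not overlap. The difference was -1.25 with a 95% confidence interval from -2.03 to -0.47, and limma's adjusted p was 0.772. Signal above the dim range remained on all 3 NFAT5-deficient arrays. The sources used here do not say whether the probe set falls inside the floxed region.

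Direction depended on brightness. Among the 7891 genes with a mean of 7 or more over the HSC arrays, 4134 (52.4%) read higher in NFAT5-deficient HSC, with a median difference of 0.02. Among dimmer genes the share was 34.3% and the median -0.07, against 8117 higher (41.6%) and 11377 lower (58.4%) over all genes. In the brighter genes, unadjusted p was under 0.05 for 351 higher (4.45%) and 182 lower (2.31%), and the groups lay apart for 5.23% higher and 4.45% lower. After quantile normalization the counts were 309 higher and 234 lower. The arrays bounded many differences: 3612 of the 7891 genes (45.8%) had a 95% interval inside 1 log2 unit on both sides of 0. Over all genes the median half-width of the interval was 0.330 in the 4874 dimmest and 0.786 in the 4875 brightest. Some bright genes of the lists were bounded closely. Rps20, a ribosomal protein gene, differed by 0.03 with an interval from -0.05 to 0.11, and Rpl32 by -0.05 with an interval from -0.16 to 0.05. For the brighter genes the median half-width of the interval was 0.772, so changes of less than about that size were mostly not resolvable.

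Of the genes that read higher in NFAT5-deficient HSC, those with large differences and no overlap are given first. Rars2, the mitochondrial arginyl-tRNA synthetase, read 6.76, 4.89 and 7.38 in wild-type and 10.70, 11.43 and 8.57 in NFAT5-deficient HSC. The difference was 3.89 with an interval from 2.12 to 5.67. The wild-type mean of Rars2, 6.34, was barely above the dim range, so the size of its difference is uncertain. Timm17a, a subunit of the translocase that imports proteins across the inner mitochondrial membrane, read 6.31, 7.81 and 6.62 against 9.48, 10.13 and 10.26. Every NFAT5-deficient array was above every wild-type array for both genes, and array 76 was the lowest of its group for Rars2 and the highest for Timm17a. The MPP differences at these genes were -0.67 and 0.11.

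Slc16a6, a member of the monocarboxylate transporter family, had the largest difference of the genes with the smallest p, 4.26 with an interval from 2.46 to 6.06. It read 4.25, 4.20 and 6.57 in wild-type and 7.37, 9.64 and 10.78 in NFAT5-deficient HSC. Its wild-type mean was within the dim range, which leaves the size of the difference unresolved. Zfp799, a zinc finger gene, had the smallest unadjusted p (4.2e-05) and read 5.41, 4.85 and 5.30 against 8.21, 8.73 and 7.01, also from a dim wild-type level. Qtrt2, a subunit of the enzyme that places queuosine in tRNA, read 6.91, 7.36 and 8.03 against 10.27, 10.37 and 9.53, a difference of 2.62 with an interval from 1.69 to 3.56. Limma's adjusted p was 0.582 for Slc16a6 and 0.573 for the other two.

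Scap escorts the sterol-sensing SREBP transcription factors from the endoplasmic reticulum to the Golgi. It read 6.59, 6.45 and 5.92 in wild-type and 8.30, 9.38 and 7.85 in NFAT5-deficient HSC, a difference of 2.19 with an interval from 1.36 to 3.02. The wild-type mean of Scap, 6.32, was barely above the dim range, so the size of its difference is uncertain. Gosr1, a SNARE of Golgi traffic, read 7.19, 8.42 and 8.14 against 9.78, 10.20 and 9.58. Adk, adenosine kinase, read 7.32, 7.07 and 6.71 against 8.37, 9.34 and 8.57. The groups were apart at all 3 genes. The rest of the 12 genes with the smallest p in this direction were closer to 1 log2 unit, with narrower spreads. Lrrfip1, which binds nucleic acids, differed by 1.09, the chromodomain gene Cdyl by 1.05, the mRNA export adaptor Fyttd1 by 0.96, and Gna15, a G protein subunit of blood cells, by 0.95. Mpped2 differed by 0.69 within the dim range. Adjusted p over these 12 genes ran from 0.573 to 0.668 by limma.

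Others were chosen for size alone, from genes whose arrays did not overlap and whose lowest array in the brighter group reached 8. Cyb5d1 differed by 2.44, Lgalsl by 2.43, the nuclear export receptor Xpo7 by 2.27 and Cds2, which makes the precursor of phosphatidylinositol, by 2.19. In Lgalsl, wild-type array 75 read 9.19 and the other wild-type arrays 6.74 each, against a lowest NFAT5-deficient value of 9.52. The gap between the groups was thus narrow despite the large difference in means.

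**Figure D1:**
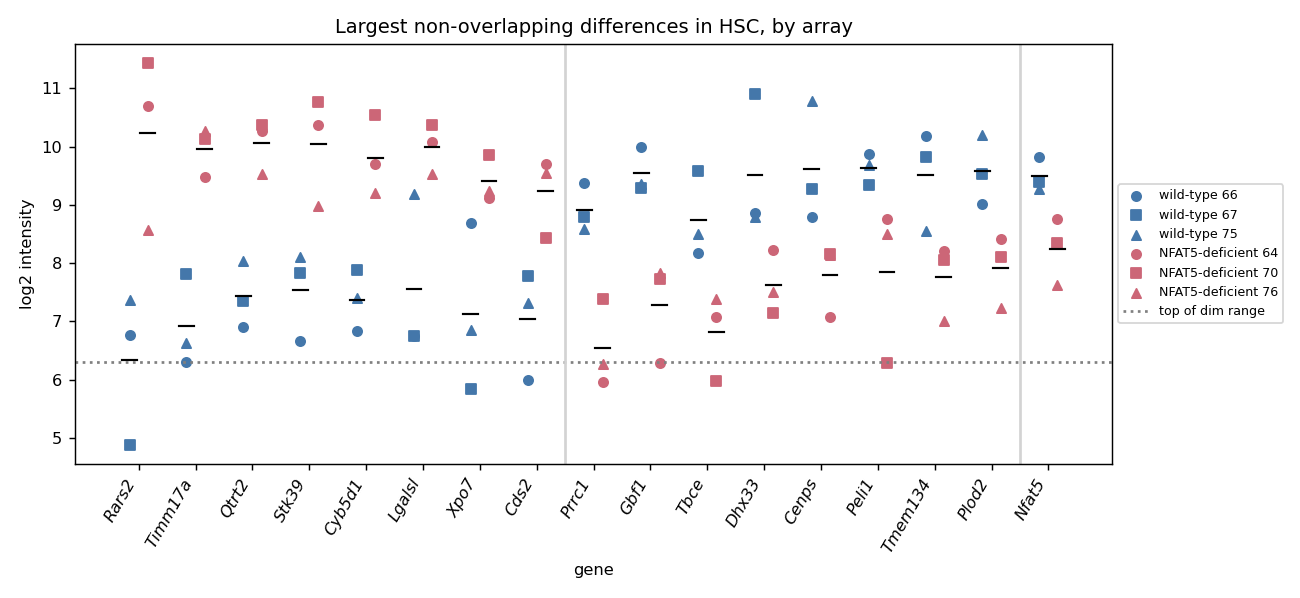
Log2 intensity on each of the 6 HSC arrays for the 8 genes with the largest difference in each direction among those without overlap, and for Nfat5. Each point is 1 array, black bars are means of 3 arrays and the dotted line is the top of the dim range (6.30). The spread within a genotype is wide in many of these genes, for example from 8.57 to 11.43 for Rars2 in NFAT5-deficient HSC.

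On the lower side, the genes with the smallest p are given first. Ercc6l2, a helicase-like gene of DNA repair, read 9.45, 7.64 and 9.38 in wild-type and 6.38, 5.16 and 7.004 in NFAT5-deficient HSC, a difference of -2.64 with an interval from -3.93 to -1.35. Its NFAT5-deficient mean was in the dim range, so the size of the difference is unresolved. Pnpla2, the adipose triglyceride lipase, read 10.10, 7.89 and 9.49 against 6.84, 6.37 and 6.98, a difference of -2.43. Both genes had wild-type array 67 as the lowest of its group. Prrc1 read 9.37, 8.79 and 8.59 against 5.96, 7.39 and 6.27.

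Gbf1 activates the small GTPase Arf1 at the Golgi. It read 9.997, 9.29 and 9.35 in wild-type and 6.28, 7.73 and 7.83 in NFAT5-deficient HSC, a difference of -2.26 with an interval from -3.25 to -1.28. Vta1, which acts in sorting at multivesicular bodies, had a smaller difference, -1.42, but a tighter one, at 9.22, 9.41 and 9.05 against 8.14, 7.69 and 7.58. Nup160, a nuclear pore subunit, read 10.92, 10.69 and 10.31 against 8.57, 9.20 and 9.25. Klf12, a transcriptional repressor, differed by -1.86, with an NFAT5-deficient mean inside the dim range. Npr2, the receptor for C-type natriuretic peptide, read 9.16, 9.19 and 8.90 against 8.003, 8.04 and 7.83, with little spread inside either group. Adjusted p over the 12 genes with the smallest p on the lower side ran from 0.573 to 0.713 by limma. Of these, Csn1s1, Caps2 and Zc2hc1b were in the dim range in both genotypes and differed by -0.57, -0.49 and -0.44.

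By size, the tubulin-folding cofactor Tbce differed by -1.93, the RNA helicase Dhx33 by -1.89, the centromere gene Cenps by -1.82, Tmem134 by -1.76 and the collagen lysyl hydroxylase Plod2 by -1.67. Peli1, a ubiquitin ligase of Toll-like receptor signalling, differed by -1.78 with an interval from -3.95 to 0.38. Its NFAT5-deficient arrays read 8.75, 6.29 and 8.50, so most of that difference lay in array 70.

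**Figure D2:**
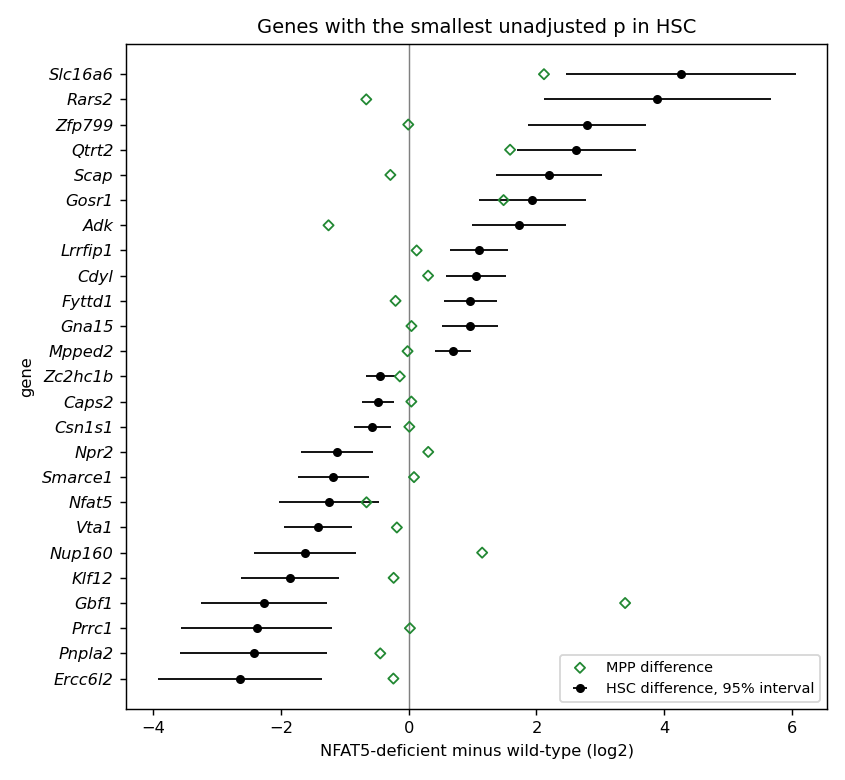
Difference between NFAT5-deficient and wild-type HSC (log2) for the 12 genes with the smallest unadjusted p in each direction and Nfat5, as points with 95% confidence intervals from limma. Open diamonds are the same difference in MPP. The HSC intervals lie away from 0 because the genes were ranked by p, while many diamonds sit near 0 and that of Gbf1 lies at 3.39.

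Among type I interferon-stimulated genes, the antiviral effectors and signal carriers that interferon induces, 27 of 43 measured read higher in NFAT5-deficient HSC and 16 lower, where 41.6% of all genes read higher. Their median difference was 0.15, beside -0.05 over all genes, and 0 were called. In 3 genes, all higher, the arrays did not overlap and unadjusted p was under 0.05. Over all genes, 3.55% lay apart on the higher side and 2.68% had such a p there. Slfn5, a member of the Schlafen family, read 7.23, 6.78 and 6.10 in wild-type and 9.25, 7.87 and 9.34 in NFAT5-deficient HSC, a difference of 2.12 with an interval from 0.60 to 3.63. Ifit1, which binds foreign RNA, read 6.15, 6.69 and 6.53 against 7.79, 6.75 and 7.25. The lowest NFAT5-deficient value was thus only just above the highest wild-type one. Zbp1, a sensor of left-handed nucleic acid, read 7.56, 7.07 and 7.52 against 7.71, 8.08 and 8.79. Limma's adjusted p was 0.779 for Slfn5 and Ifit1 and 0.792 for Zbp1.

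The genotypes overlapped at 3 further members of the list, Isg15, Irf7 and Stat2. Isg15, a ubiquitin-like modifier, read 6.99, 6.83 and 7.999 in wild-type and 6.40, 8.54 and 7.996 in NFAT5-deficient HSC, with an interval from -0.96 to 1.71 around 0.37. Irf7, which amplifies interferon production, was within the dim range on 5 arrays and read 6.48 on NFAT5-deficient array 70. Stat2, a subunit of the factor that interferon activates, read 6.22, 6.84 and 7.02 against 7.78, 8.61 and 6.86. Array 70 was the highest of the 6 at all 3 genes. Without it the median of the 43 genes was 0.01, and without it and wild-type array 66 it was 0.02. In MPP, 15 of the 43 genes read higher, with a median of -0.07, and the interaction was not called for any gene.

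Upstream of these genes, the induction and sensing list had a median of 0.06, with 12 of 22 genes higher. In 1 of the 22 the groups lay apart, on the lower side, where 6.61% of all genes did. Irf1, an interferon-inducible transcription factor, read 7.87, 8.17 and 9.03 against 8.85, 10.26 and 9.79. Its difference was 1.27, with overlap and a limma adjusted p of 0.792. Ifnar1, a chain of the type I interferon receptor, differed by -0.28 with an interval from -1.07 to 0.51. In MHC class I presentation, 6 of 11 genes read higher. Erap1, which trims peptides for MHC class I, read 7.81, 8.24 and 8.09 against 8.56, 9.02 and 8.60, without overlap.

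RefSeq promoter windows (GRCm38.p6) were at hand for 15683 of the genes, each running from 250 bases before the annotated start to 50 after it. The core of the interferon-stimulated response element, searched on both strands as GAAA, any 2 bases and GAAA again, occurred in 3.41% of all windows and in 16 of 32 windows of interferon-stimulated genes. It occurred in 3.85% of windows of genes that read higher at unadjusted p under 0.05, and in 4.64% of those that read lower. The windows of Ifit1 and Slfn5 are shown because both genes read higher without overlap and both windows hold a match. Capitals mark matches, which are a description of the letters only. That of Ifit1 is chr19:34640639-34640938 on the plus strand, with matches starting 104 and 85 bases before the start. That of Slfn5 is chr11:82951852-82952151 on the plus strand, with 1 match 155 bases before it.
Ifit1: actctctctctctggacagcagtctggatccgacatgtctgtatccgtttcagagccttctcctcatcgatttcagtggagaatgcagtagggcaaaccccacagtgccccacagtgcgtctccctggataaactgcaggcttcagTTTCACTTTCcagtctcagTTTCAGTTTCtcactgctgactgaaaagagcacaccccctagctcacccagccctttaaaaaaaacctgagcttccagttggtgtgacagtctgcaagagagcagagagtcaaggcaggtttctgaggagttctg
Slfn5: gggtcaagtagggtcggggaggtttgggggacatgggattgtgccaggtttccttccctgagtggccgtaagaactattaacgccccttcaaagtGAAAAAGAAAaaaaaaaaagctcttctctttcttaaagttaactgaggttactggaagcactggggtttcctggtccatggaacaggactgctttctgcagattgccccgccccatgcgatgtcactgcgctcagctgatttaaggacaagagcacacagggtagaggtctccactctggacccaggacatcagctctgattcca
In Ifit1 both matches read on the minus strand, and the first overlaps a TTTCCA, the NFAT5 core on that strand.

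Replication genes showed the largest median of the 32 lists. Of 20 measured genes of G1/S and DNA replication, which build and fire replication origins, 16 read higher without NFAT5, at a median of 0.28. Over all genes 41.6% read higher, and over genes at a mean of 7 or more 52.4%. Mcm5, a subunit of the replicative helicase, read 8.08, 7.99 and 8.14 in wild-type and 8.82, 8.86 and 8.76 in NFAT5-deficient HSC, a difference of 0.74 with an interval from 0.24 to 1.24. Pola1, the catalytic subunit of DNA polymerase alpha, read 9.87, 9.82 and 10.31 against 10.71, 10.48 and 10.77. Rrm2, the subunit of ribonucleotide reductase made in S phase, read 7.77, 7.20 and 7.87 against 8.31, 9.10 and 8.15. These 3 genes did not overlap between genotypes, and no member lay apart in the other direction, where 3.55% of all genes lay apart on the higher side and 6.61% on the lower side. Limma's adjusted p was 0.779 for Mcm5 and for Pola1. Gins2, of the GINS complex that is part of the active helicase, differed by 1.27 but overlapped. Pcna, the sliding clamp, read between 11.55 and 11.72 on all 6 arrays and differed by -0.03, with an interval from -0.20 to 0.14.

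Leaving out any single HSC array gave a median between 0.20 and 0.33 for the replication genes, and leaving out wild-type arrays 66 and 67 together gave 0.16. In MPP 18 of the 20 read higher, with a median of 0.18. Genes of G2/M and mitosis were split in direction, with 11 of 22 higher and a median of -0.06. In 2 of the 22 the groups lay apart, both higher. Over all genes 3.55% lay apart on the higher side and 6.61% on the lower side. Ska3, of the kinetochore, read 4.88, 6.18 and 5.09 against 7.12, 6.44 and 7.02, from a wild-type level in the dim range. Ccna2, which encodes cyclin A2, read 9.18, 8.67 and 9.14 against 9.46, 9.31 and 9.60, a difference of 0.46. Aurkb, the mitotic kinase, read 9.05, 9.71 and 9.45 against 9.60, 7.15 and 8.14, with overlap. Mki67, the proliferation marker, differed by -0.27 with an interval from -0.72 to 0.19. The mean of the G2/M genes on NFAT5-deficient array 70 was 8.28, against 8.77 to 9.23 on the other 5, and without array 70 their median was 0.20. Among cyclin-dependent kinases and their inhibitors, Cdk6, which drives exit from quiescence, read 9.94, 10.30 and 9.03 against 10.38, 9.88 and 11.16, with overlap.

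**Figure D3:**
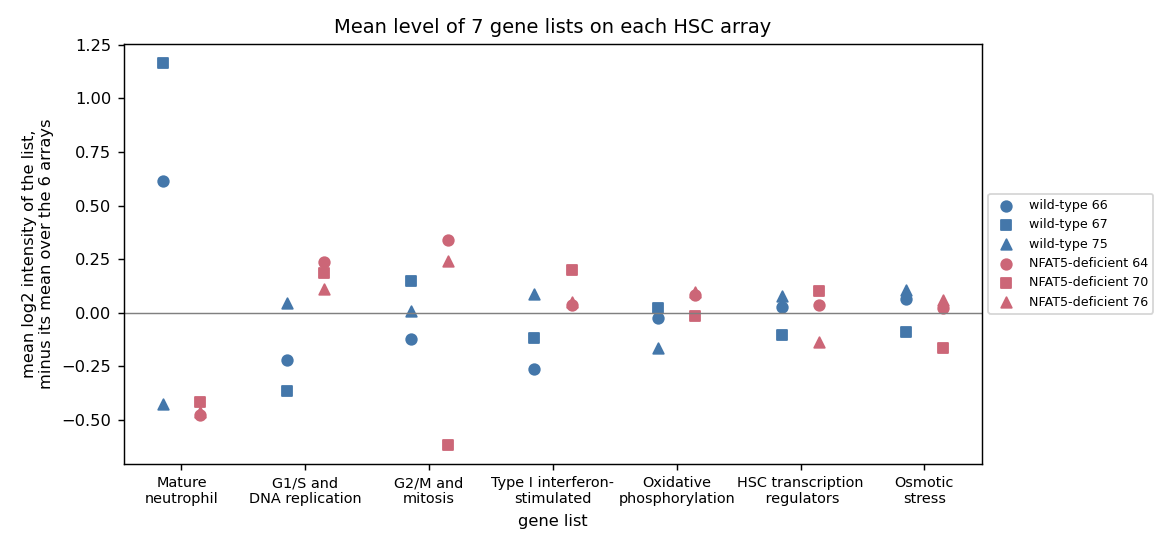
Mean log2 intensity of 7 gene lists on each HSC array, drawn as the distance from the list's mean over the 6 arrays. Points are single arrays, circles, squares and triangles telling arrays of one genotype apart. Replication genes place all 3 NFAT5-deficient arrays above the 3 wild-type arrays, whereas mature neutrophil genes are high on wild-type arrays 66 and 67 only.

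The stem cell lists had small median differences, but the intervals of single genes were wide. The median half-width was 0.56 for transcription regulators and 0.77 for surface and signature genes. Of 17 transcription regulators of HSC, 8 read higher and 9 lower, with a median of -0.01 that turned to 0.01 when arrays were centred on their medians. None lay apart between genotypes. Meis1, which maintains HSC, read 10.94, 11.17 and 11.16 against 11.22, 10.84 and 10.85, and its interval ran from -0.47 to 0.23. Runx1 and Gata2 differed by -0.17 and -0.22, with intervals reaching -0.80 and -0.98. Among 22 surface and signature genes 11 read higher and 11 lower, with a median of 0.01. Procr, the protein C receptor that marks the most primitive HSC, read 8.16, 8.40 and 7.98 in wild-type and 7.81, 7.15 and 6.28 in NFAT5-deficient HSC, a difference of -1.10 with an interval from -2.56 to 0.36. It was the 1 member of these surface and signature genes without overlap, where 6.61% of all genes lay apart on the lower side. Clec1a read 8.44, 9.09 and 9.21 against 7.40, 8.76 and 6.89, with overlap. Tek, the angiopoietin receptor, and Pdzk1ip1 differed by 0.07 and 0.08, and after quantile normalization Tek differed by -0.02.

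Of the genes through which HSC hold to their niche, Cxcr4 and Cd44 read higher without overlap in NFAT5-deficient HSC. Cxcr4, the receptor for the niche chemokine CXCL12, read 8.69, 8.66 and 8.99 in wild-type and 9.76, 10.22 and 10.53 in NFAT5-deficient HSC. The difference was 1.39 with an interval from 0.54 to 2.23. Cd44, the hyaluronan receptor, read 8.42, 7.74 and 7.99 against 9.05, 9.05 and 9.12, a difference of 1.02 with an interval from 0.53 to 1.52. In MPP Cd44 differed by 0.62, also without overlap. Limma's adjusted p was 0.772 for Cxcr4 and 0.669 for Cd44. Of the whole list, 6 of 16 members read higher and 10 lower, with a median of -0.07. Besides Cxcr4 and Cd44, 1 member lay apart, on the lower side. Over all genes 3.55% lay apart on the higher side and 6.61% on the lower side.

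The osmotic stress genes, the classical programme of NFAT5, had a median near that of all genes. Of 11 measured, 5 read higher and 6 lower, with a median of -0.03. Slc6a6, the taurine transporter, read 9.62, 9.05 and 8.96 in wild-type and 9.07, 9.15 and 9.55 in NFAT5-deficient HSC. Its difference was 0.05, or -0.02 after quantile normalization, with an interval from -0.51 to 0.60. Slc6a12, the betaine transporter, was in the dim range in both genotypes, at 6.57, 6.01 and 6.13 against 6.01, 5.87 and 6.08. Hspa1b, an inducible chaperone of the HSP70 family, read 6.89, 6.56 and 6.52 against 6.05, 6.33 and 6.35, with an NFAT5-deficient mean in the dim range. It was the 1 member of the 11 without overlap, where 6.61% of all genes lay apart on the lower side. Sgk1, a kinase induced by hypertonicity, differed by 0.06.

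Stk39 encodes the kinase SPAK, which activates sodium-potassium-chloride cotransport when cells shrink, and it was not in that list. It read 6.67, 7.83 and 8.10 in wild-type and 10.38, 10.77 and 8.99 in NFAT5-deficient HSC, a difference of 2.51 with an interval from 1.17 to 3.85. Limma's adjusted p was 0.713, and in MPP Stk39 differed by -1.78. The NFAT5 core, TGGAAA on either strand, occurred in 19.7% of all promoter windows, and the longer NFAT5 site, the tonicity-responsive enhancer, in 4.25%. The longer site occurred in 1 of 9 windows of osmotic stress genes. In genes at unadjusted p under 0.05 it occurred in 3.17% of windows on the higher side and in 3.71% on the lower side. The windows of Slc6a12, a known NFAT5 target, and of Stk39 both hold it. So do those of Caps2, Cd3g and Cst7, which read lower in NFAT5-deficient HSC, by -0.49, -0.27 and -0.58. The windows of Slc6a12 and Stk39 are shown as examples, with the match in capitals. A match describes the letters only, and whether NFAT5 acts on Stk39 was not tested. That of Slc6a12 is chr6:121342324-121342623 on the plus strand, with the match 75 bases before the start. That of Stk39 is chr2:68471932-68472231 on the minus strand, with the match 227 bases before it.
Slc6a12: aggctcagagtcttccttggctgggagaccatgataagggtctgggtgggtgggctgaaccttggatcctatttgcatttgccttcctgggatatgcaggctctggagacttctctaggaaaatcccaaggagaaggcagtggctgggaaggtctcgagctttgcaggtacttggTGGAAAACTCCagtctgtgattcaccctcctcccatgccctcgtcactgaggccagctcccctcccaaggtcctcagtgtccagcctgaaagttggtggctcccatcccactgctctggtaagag
Stk39: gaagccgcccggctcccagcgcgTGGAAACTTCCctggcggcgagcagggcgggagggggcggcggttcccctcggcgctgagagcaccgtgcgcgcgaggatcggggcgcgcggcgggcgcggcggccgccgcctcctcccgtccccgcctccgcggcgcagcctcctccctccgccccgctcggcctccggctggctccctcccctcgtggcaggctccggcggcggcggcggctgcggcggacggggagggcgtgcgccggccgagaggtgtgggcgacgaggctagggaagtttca

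Energy and protein handling genes were set against the 41.6% of all genes, and 52.4% of the brighter genes, that read higher. Of 31 oxidative phosphorylation genes 23 read higher, with a median of 0.13, and of 18 unfolded protein response and chaperone genes 16, with a median of 0.09. Ndufv1, of complex I, read 8.15, 8.88 and 8.37 against 9.76, 9.26 and 9.12, and Cox7a2, of complex IV, 10.01, 9.88 and 9.68 against 10.31, 10.14 and 11.05. Of the 8 oxidative phosphorylation genes that read lower, Ndufb3, another complex I gene, was the one without overlap, at 10.36, 10.40 and 9.81 against 9.35, 8.66 and 9.55, a difference of -1.01. Of the 31 genes 2 lay apart on the higher side and 1 on the lower side. Over all genes those shares were 3.55% and 6.61%. Pdia6, a disulfide isomerase of the endoplasmic reticulum, read 7.87, 7.86 and 7.59 against 8.75, 9.19 and 8.32. Hspa5, the master chaperone of that compartment, differed by 0.25 with an interval from -0.45 to 0.94. The chaperone median was 0.02 once wild-type array 75 was left out and 0.26 once NFAT5-deficient array 70 was. In lysosomes, the membrane protein gene Lamp1 read 8.50, 9.12 and 8.88 against 9.84, 9.70 and 10.14, while Atg16l1, of autophagy, read 8.46, 8.99 and 5.93 against 6.44, 5.64 and 5.86, down to the dim range.

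Chromatin genes held both directions. Cbx7, the Polycomb subunit that favours self-renewal, read 6.52, 6.78 and 6.84 in wild-type and 9.05, 9.66 and 7.04 in NFAT5-deficient HSC. Ezh1, the Polycomb methyltransferase of quiescent cells, read 5.40, 5.99 and 6.50 against 7.05, 8.08 and 6.57, from a dim wild-type mean. In both genes arrays 64 and 70 were high and array 76 was just above wild-type. Smarce1, of the BAF remodelling complex, read 10.09, 10.79 and 10.19 against 9.40, 9.26 and 8.87, a difference of -1.18 with an interval from -1.74 to -0.62. Over the 19 genes 13 read higher, with a median of 0.19 that became -0.06 without wild-type array 66 and NFAT5-deficient array 70. Ezh2 and Bmi1 differed by 0.50 and 0.35, with overlap.

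Mature neutrophil genes read lower in NFAT5-deficient HSC for 12 of 13, at the lowest list median, -0.57. S100a9, a calprotectin subunit of neutrophils, read 10.85, 10.26 and 6.38 in wild-type and 6.001, 5.48 and 6.64 in NFAT5-deficient HSC. Its partner S100a8 read 9.62, 8.99 and 4.47 against 4.22, 6.43 and 5.41, and Ngp, a secondary granule gene, 8.21, 10.43 and 5.72 against 6.02, 6.06 and 5.82. Wild-type arrays 66 and 67 had the highest values at all 3 genes. Wild-type array 75 lay within the NFAT5-deficient range at S100a9 and S100a8 and below it at Ngp, and the NFAT5-deficient means of all 3 were in the dim range. Of the 13 genes, 7 were in the dim range in both genotypes. The mean of 9 neutrophil markers, 5 of them dim in both genotypes, was 6.89, 7.38 and 5.52 in wild-type and 5.42, 5.53 and 5.51 in NFAT5-deficient HSC (exact two-sided permutation p = 0.2, where 3 against 3 arrays allow no less than 0.1). With arrays 66 and 67 left out the list median was -0.08. In bulk samples, fewer cells of a type and less RNA per cell cannot be told apart. Primary granule genes, made earlier in the lineage, did not follow, with 6 of 12 higher and a median of 0.01. Prg2, an eosinophil granule gene, read 11.76 on wild-type array 66 and between 5.79 and 6.62 on the other 5 arrays. Of the marker lists of other cells, 4 of 5 macrophage, 2 of 4 B cell, 4 of 5 T and NK cell, 0 of 2 erythroid and 3 of 4 mast cell markers were in the dim range in both genotypes, and exact p values were between 0.3 and 1.0.

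Leaving out 1 HSC array at a time gave between 0 and 3 calls. Without wild-type array 75, limma called Rpusd4, Dnm3 and Ttc12 lower (adjusted p = 0.00917 each). Rpusd4, a mitochondrial pseudouridine synthase, read 8.65, 7.68 and 5.28 in wild-type and 5.23, 4.80 and 5.14 in NFAT5-deficient HSC. Dnm3, a dynamin, read 7.03, 7.82 and 4.37 against 4.04, 4.92 and 4.30, and Ttc12 8.34, 7.76 and 5.72 against 5.55, 5.49 and 5.64. All 3 had NFAT5-deficient means in the dim range. At these 3 genes the wild-type arrays that stood high were 66 and 67, the arrays that also carried the neutrophil markers (6.89 and 7.38, against 5.52 on array 75), whose part in the result was not tested. Without wild-type array 66, limma called Car5b (adjusted p = 0.0354) and Shank3 (0.0115) lower, both with NFAT5-deficient means in the dim range. Car5b read 4.80, 6.51 and 6.87 in wild-type and 4.43, 4.62 and 4.71 in NFAT5-deficient HSC. Its wild-type mean was dim only with array 66 counted, and the wild-type arrays kept in that fit were above the dim range. Tnfsf4, the OX40 ligand, read 5.77, 8.87 and 9.01 on the NFAT5-deficient arrays and between 5.65 and 6.26 on the wild-type arrays, all within the dim range, and was called higher without array 64 (0.011).

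**Figure D4:**
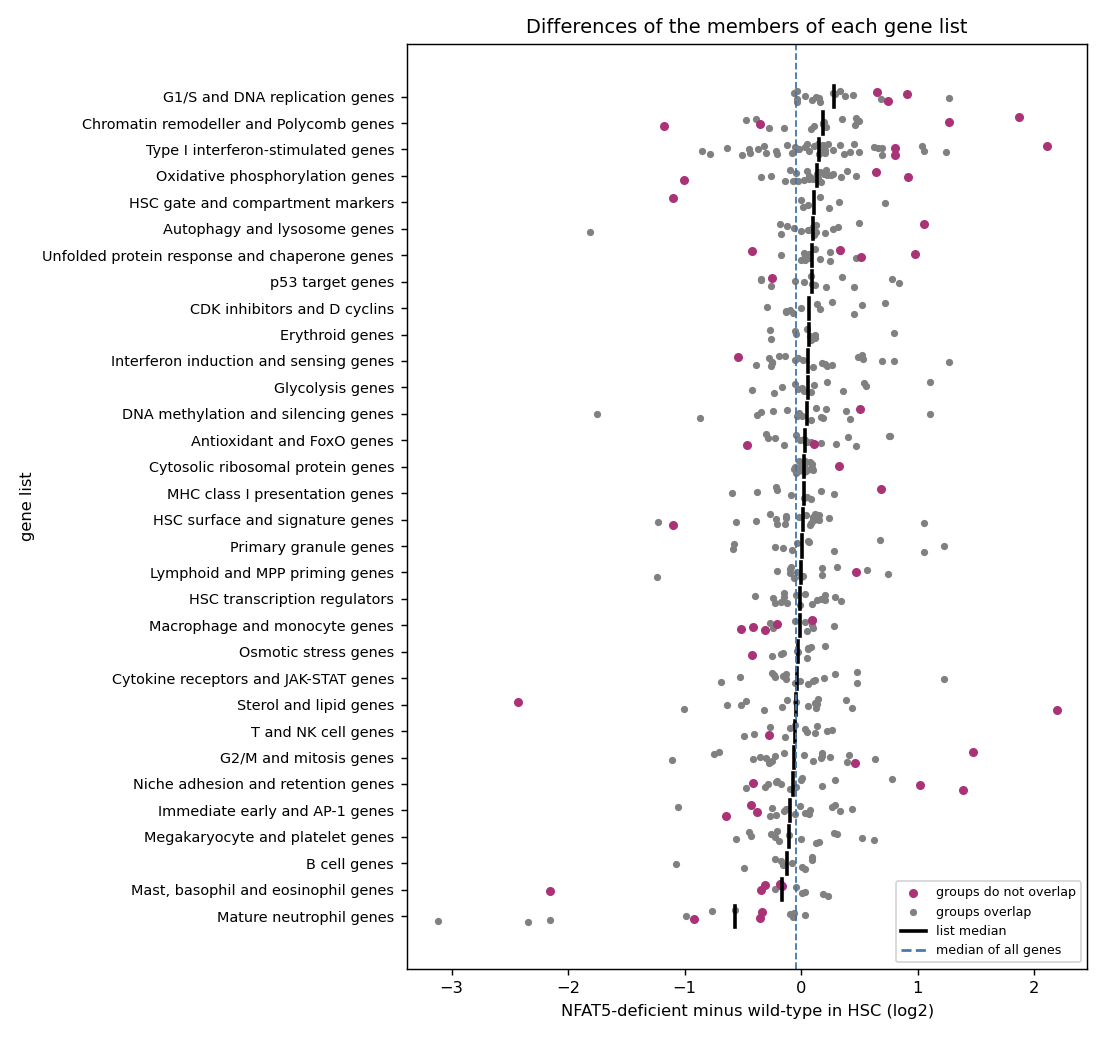
Differences between NFAT5-deficient and wild-type HSC (log2) of every measured member of the 32 gene lists. Each point is 1 gene, purple where the 3 arrays of one genotype all lie above the other 3, black bars are list medians and the dashed line is the median of all genes (-0.05). List medians run from -0.57 for mature neutrophil genes to 0.28 for replication genes, and members spread far more widely than the medians.

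The HSC differences were set beside those of MPP, which come from separate arrays but share the fit's estimate of the spread. Choosing genes by HSC p therefore favours genes that also vary little within MPP groups. The shares without overlap below are thus no independent check. Of the 522 genes higher at unadjusted p under 0.05 in HSC, 306 (58.6%) were also higher in MPP, beside 38.9% of all genes. Of the 683 lower genes, 413 (60.5%) were also lower in MPP, beside 61.1% of all genes. A shared direction without overlap in MPP was found for 44 (8.43%) of the higher genes, where 3.8% of all genes had it. For the lower genes it was 80 (11.7%), beside 8.84%. In the opposite direction 34 of the higher and 38 of the lower genes lay apart in MPP. Over all genes those shares were 8.84% lower and 3.8% higher. Brightness moved these baselines. Among genes at an HSC mean of 7 or more, 50.8% were higher in MPP and 49.2% lower. Of the 351 higher HSC genes at that level, 217 (61.8%) were also higher in MPP, and of the 182 lower ones 71 (39.0%) were also lower. Of the genes at that level, 6.01% lay apart in MPP on the higher side. Of the 12 higher genes with the smallest p in HSC, 6 kept their direction in MPP, 4 of them without overlap. Of the 12 lower ones 5 did, 0 of them without overlap.

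Slc16a6, Qtrt2, Cyb5d1 and Gosr1 read higher without overlap in both populations. Slc16a6 in MPP read 6.21, 6.54 and 5.53 in wild-type and 8.33, 8.31 and 7.98 in NFAT5-deficient cells. Qtrt2 differed by 1.59 there, Cyb5d1 by 2.06 and Gosr1 by 1.48. Opposite directions were also seen. Gbf1 in MPP read 6.61, 6.79 and 5.76 in wild-type and 10.20, 9.57 and 9.55 in NFAT5-deficient cells, so wild-type HSC and NFAT5-deficient MPP were the high groups. Its interaction, the HSC difference minus the MPP difference, was -5.65 (SE 0.63) with a limma adjusted p of 0.0549, and over 21 other settings the adjusted p ran from 0.0393 to 0.267. Stk39 in MPP read 10.24, 10.37 and 9.31 against 8.95, 7.12 and 8.50, and Adk 8.82, 8.51 and 8.11 against 6.92, 7.05 and 7.69. Their interactions were 4.29 and 2.99, with limma adjusted p values of 0.78 and 0.303. Over all genes the interaction was called for 0 (0.0%), with 817 genes (4.19%) at unadjusted p under 0.05.

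**Figure D5:**
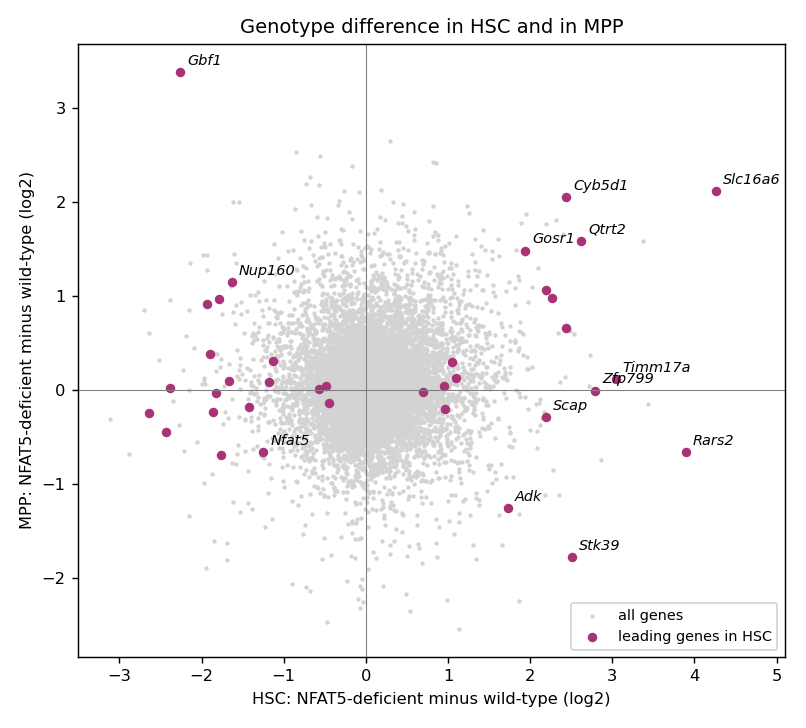
Difference between NFAT5-deficient and wild-type cells in HSC (horizontal axis, log2) and in MPP (vertical axis, log2) for all 19494 genes in grey, with the leading HSC genes in purple. Gbf1 lies at -2.26 and 3.39, Stk39 at 2.51 and -1.78, and Slc16a6 at 4.26 and 2.12.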

How the data were processed

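The authors deposited 1 table of log2 intensities, 1 value per probe set and array. No header states the scale, and values between 2.51 and 13.28 fit log2. RMA and limma are named, with no version or role, in the submitters' processing notes. The genome build was not given in the sources used here. Of 22142 probe sets, 19527 had 1 symbol in the platform annotation, 0 several, and 2615 (11.8%) none, and these were left out of the tests. The brightest probe set stood for each of 33 genes with several, which left 19494 genes. The number of arrays limits the precision.

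Differences were fitted with limma 3.58.1 in R 4.3.3 (a mean per group over all 12 arrays, eBayes with trend, Benjamini-Hochberg over all genes, calls at an adjusted p under 0.05), and the code was tested on simulated data. Intervals are at 95%. Array-level means were compared by exact permutation. The comparison, the 32 gene lists and the tests were chosen with earlier results of these data known, and no list was tested as a set. Named were Nfat5, the gate markers, the 12 genes with the smallest p per direction, and the 8 with the largest non-overlapping difference per direction where the brighter group's lowest array was at 8 or more. Further named genes were up to 3 per list by p, up to 3 defining ones, those called without 1 HSC array, and the 5 narrowest intervals among list members at 9 or more. Rankings skipped gene models with no proper name and olfactory receptors.

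Settings varied were a filter (mean of 6 or more), the variance prior, HSC arrays alone, centring, quantile normalization, array weights, probe set means, a block, thresholds, and arrays left out. Leaving out wild-type arrays 66 and 67 together was chosen after seeing the data. Drawings used Python 3.11.15 and matplotlib 3.10.9. Scan dates were not used here, so no batch was tested.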

Additional observations from a re-analysis of the deposited data

How the results depend on the processing

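With 3 arrays a group from 300 pg of RNA, the calls between HSC genotypes stayed at 0 under every planned setting that kept all arrays, and when wild-type array 66 and NFAT5-deficient array 70 were left out together (smallest adjusted p 0.0965). Leaving out 1 array gave 0 to 3 calls, 1026 to 1575 genes at unadjusted p under 0.05, 3541 to 4820 genes without overlap, 3038 to 3639 intervals inside 1 log2 unit and 0 to 1 interaction calls, and fewer arrays make non-overlap easier by construction. Leaving out arrays 66 and 70 gave 6168 genes without overlap. The filter gave 782 genes at unadjusted p under 0.05 and 1252 without overlap, since it tests fewer genes, and 1 interaction call. Of the genes at unadjusted p under 0.05, 43.3% were higher, against 56.4% with the filter and 49.1% after quantile normalization. At an adjusted p under 0.1 there was 1 interaction call. Without wild-type arrays 66 and 67, added after seeing the data, limma called 30 genes, 9 interactions and 2179 intervals inside 1 log2 unit, with the lone wild-type HSC array 75 assumed to vary like the other groups.

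Array numbers were not taken to pair HSC with MPP, since same-numbered deviations from the group means correlated at -0.0137 to 0.0641. With the number as a replicate block the calls between HSC genotypes were 0 and the interaction calls 1 (Gbf1, limma adjusted p = 0.0478), and other results kept their side of the threshold.

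Some small differences changed sign. After quantile normalization Slc6a6 was -0.018 and Tek -0.018, and with array weights Cd48 was -0.14. Without arrays 66 and 70, Cd48 was -0.90, Irf7 -0.33, Bmi1 -0.28, Mpo -0.23, Isg15 -0.22, Tek -0.16, Kit -0.042 and Pcna 0.042. Leaving out 1 array gave Cd48 -0.53 to 0.70, Irf7 -0.23 to 0.92, Isg15 -0.076 to 0.99, Ptprc -0.16 to 1.48, Bmi1 -0.20 to 0.70, Hspa5 -0.10 to 0.52, Slamf1 -0.051 to 0.66, Kit -0.076 to 0.21, Tek -0.15 to 0.39, Gata2 -0.49 to 0.080, Runx1 -0.30 to 0.021, Pdzk1ip1 -0.10 to 0.23, Slc6a6 -0.10 to 0.25, Sgk1 -0.012 to 0.13 and Pcna -0.065 to 0.013. The cause was not tested. The mature neutrophil median was -1.54 with the filter, which left out its dim members.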

Other observations

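Immediate early genes, which cells switch on within minutes of a stimulus and often during handling, read lower in NFAT5-deficient HSC for 11 of 18, a share near the 58.4% of all genes, with a median of -0.09 beside -0.05. In 3 of the 18 the groups lay apart, all lower, where 6.61% of all genes did. Fos, a subunit of AP-1, read 7.36, 6.31 and 6.61 in wild-type and 6.19, 6.05 and 6.10 in NFAT5-deficient HSC. Ccn1 and Egr2 differed by -0.43 and -0.38, also without overlap. The NFAT5-deficient mean of Fos lay in the dim range. In sterol and lipid metabolism, Insig1, which holds SREBP back in the endoplasmic reticulum, read 7.70, 8.91 and 8.76 against 7.79, 7.58 and 6.98. Its difference was -1.01, with overlap and a limma adjusted p of 0.79, where Scap had a difference of 2.19. The list as a whole had 8 of 17 genes higher and a median of -0.04. Among silencing genes, Dnmt3b, a DNA methyltransferase, differed by -0.87 and Dnmt3a by 0.42, both with overlap, and Morc3 read 8.11, 8.16 and 8.47 against 8.79, 8.71 and 8.76.

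Of 11 mast cell, basophil and eosinophil genes, 7 of which were dim in both genotypes, 7 read lower, 5 of them without overlap, with a median of -0.16. Of 14 macrophage and monocyte genes, 11 dim in both genotypes, 7 read higher and 7 lower, with a median of -0.008. Of these, 4 lay apart on the lower side and 1 on the higher side. Over all genes 6.61% lay apart on the lower side and 3.55% on the higher side. Lymphoid priming genes had 8 of 15 higher and a median of 0.00, and megakaryocyte and platelet genes 6 of 15 and a median of -0.10. Satb1, a chromatin organiser of lymphoid progenitors, read 8.42, 8.02 and 5.31 in wild-type and 6.65, 6.21 and 5.17 in NFAT5-deficient HSC, with array 75 again apart from the other wild-type arrays. Mpo, which encodes myeloperoxidase, read 6.83, 7.88 and 7.73 against 8.86, 10.45 and 6.30, so the NFAT5-deficient arrays enclosed the whole wild-type range. Cytosolic ribosomal protein genes lay close to 0, with a median of 0.03 over 22 genes. Rplp1, a stalk protein of the large subunit, was the one without overlap, at 11.65, 11.53 and 11.69 against 11.91, 12.06 and 11.86. Over all genes 3.55% lay apart on the higher side. The difference at Rplp1 was 0.32 with an interval from 0.16 to 0.48 and a limma adjusted p of 0.706. Sod1, the cytosolic superoxide dismutase, read 12.35, 12.40 and 12.37 against 12.44, 12.48 and 12.55, a small difference of 0.11 without overlap. Its interval ran from 0.01 to 0.21, limma's adjusted p was 0.779, and the MPP difference was -0.003.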
